A study of Mus musculus with 8 samples.

Results

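The inhibitory checkpoint genes described here were 8 receptor genes (Ctla4, Pdcd1, Lag3, Havcr2, Tigit, Btla, Cd200r1 and Klrg1) and 2 ligand genes (Cd274 and Pdcd1lg2), 10 of the 23183 genes counted. They were found by gene symbol, and the set was chosen by their Yoda1 and DMSO values in these same libraries, known from earlier work on the data, so the differences between the groups in these 10 genes are given as a description, without a test. All 10 were among the 12239 genes with enough counts to be tested. The study asked how the mechanosensitive ion channel Piezo1 acts in group 2 innate lymphoid cells (ILC2s), and mRNA was sequenced from cultured ILC2s of mouse lung. One group of 4 libraries came from cells given 5 µM Yoda1, a chemical agonist of Piezo1, and the other group of 4 libraries from cells given 0.1% DMSO, the vehicle, each for 3 h. Both groups came from wild-type C57BL/6 mice aged 6 to 10 weeks that had received recombinant IL-33, and the cells of both groups were enriched by magnetic beads and kept with IL-2, IL-7 and IL-33, each at 10 ng/mL, so every value below is from cells already exposed to IL-33.

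Checkpoint receptors are surface proteins that dampen lymphocyte activation once their ligands engage them. CTLA-4 competes with the costimulatory receptor CD28 for CD80 and CD86, whereas PD-1 (Pdcd1), TIGIT and BTLA recruit phosphatases through inhibitory motifs in their cytoplasmic tails. ILC2s carry PD-1, CTLA-4, TIGIT and KLRG1 on subsets of cells, and PD-1 and KLRG1 are used as marks of activated or mature ILC2s.

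Library totals ranged from 12438009 to 19534653 counts, and 1 count was worth between 0.0514 and 0.0807 CPM (the count scaled to a common library total, with TMM factors). The ILC2 markers were abundant, with a summed level of 18981 ± 222 CPM in DMSO and 21259 ± 188 CPM in Yoda1 libraries (SD, n = 4), and all 15 of 15 markers passed the filter on low counts. Differences between Yoda1 and DMSO libraries were tested by the quasi-likelihood method of edgeR, and a gene was called at a Benjamini-Hochberg adjusted p under 0.05. Of all genes tested, 10.9% were called, 6.04% as higher and 4.84% as lower with Yoda1, and in 15.5% the 4 Yoda1 and the 4 DMSO libraries did not overlap. Whether the 4 libraries of a group came from separate mice or cultures is not stated, so p-values measure only the spread between these samples.

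The promoters of 4 members called higher with Yoda1 are shown first. Yoda1 opens a calcium channel, and calcium can act on transcription through NFAT, often together with AP-1. The paper reported that NFAT protein was unchanged with Yoda1. A part of NFAT or AP-1 in the values of the members was not tested. Each sequence holds the 250 bases before the RefSeq start of the gene (GRCm38.p6), written 5′ to 3′ along the gene, with capitals for matches on either strand to the NFAT core GGAAA or the AP-1 site TGANTCA. The windows are chr1:60908775-60909024 on the plus strand for Ctla4, chr1:94052554-94052803 on the minus strand for Pdcd1, chr11:46454681-46454930 on the plus strand for Havcr2 and chr19:29367188-29367437 on the plus strand for Cd274. The RefSeq start of Ctla4 lies inside the longer gene span of GENCODE, whose start is used for the distances to neighbours, so its window is within that span.
Ctla4: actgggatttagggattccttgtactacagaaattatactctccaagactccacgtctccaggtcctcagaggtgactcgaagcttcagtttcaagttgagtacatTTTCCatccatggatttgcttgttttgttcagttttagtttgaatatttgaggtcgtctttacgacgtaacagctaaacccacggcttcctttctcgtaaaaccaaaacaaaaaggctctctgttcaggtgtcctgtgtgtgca
Pdcd1: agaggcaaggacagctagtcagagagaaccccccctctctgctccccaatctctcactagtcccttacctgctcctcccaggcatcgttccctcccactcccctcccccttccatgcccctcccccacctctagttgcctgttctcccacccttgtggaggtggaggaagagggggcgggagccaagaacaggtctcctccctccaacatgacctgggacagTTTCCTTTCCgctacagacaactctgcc
Havcr2: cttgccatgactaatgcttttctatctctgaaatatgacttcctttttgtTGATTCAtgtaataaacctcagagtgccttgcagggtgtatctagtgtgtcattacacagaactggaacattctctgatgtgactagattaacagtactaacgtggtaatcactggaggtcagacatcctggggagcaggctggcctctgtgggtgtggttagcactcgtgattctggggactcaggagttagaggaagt
Cd274: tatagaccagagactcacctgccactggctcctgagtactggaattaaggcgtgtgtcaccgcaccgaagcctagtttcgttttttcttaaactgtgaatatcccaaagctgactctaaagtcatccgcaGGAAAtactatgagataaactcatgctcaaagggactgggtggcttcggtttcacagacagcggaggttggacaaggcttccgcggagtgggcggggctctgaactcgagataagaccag

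In Ctla4 the core began 144 bases before the start and in Cd274 120 bases before it. Pdcd1 held a pair of cores side by side, 28 and 23 bases before its start. Havcr2 held no NFAT core but an AP-1 match 200 bases before its start. Windows were found for 7 of the 10 members, and 5 of the 7 held the NFAT core, beside 55.6% of 32851 mouse promoters of the same length, since a core this short is common. The AP-1 site was in 1 of 7 and in 6.75% of all promoters. Tigit had 2 NFAT cores, as did Pdcd1, and 21.4% of all promoters held 2 or more. The other motifs searched on both strands, the CRE TGACGTCA, the NR4A site AAAGGTCA, the STAT site TTCNNNGAA, the T-box core GGTGTGA and the core of the IRF site, were in 0 of 7 windows and in 1.55%, 1.34%, 7.02%, 3.33% and 2.98% of all promoters. A match marks letters in the window and no binding, and a missing match covers this window alone.

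Of the 10 members, 5 were called, namely Ctla4, Havcr2, Lag3, Pdcd1 and Cd274, and each was higher in Yoda1-treated ILC2s. That is 5 of 10 members called, beside 10.9% of all genes, and 7 of 10 members did not overlap between the groups, beside 15.5% of all genes. Nothing is read from these shares, since the members were chosen with this contrast known. The median log2 fold change of the 10 members was 0.23 and that of all genes tested was -0.01. In bulk RNA, more cells of one type and more RNA per cell cannot be told apart.

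Ctla4, the CD28-family receptor that takes CD80 and CD86 from CD28, lies on chromosome 1 from 60887000 to 60915832 and had the largest fold change of the 10 members. Its levels in the 4 DMSO libraries were 15.9, 13.8, 15.8 and 17.3 CPM, and in the 4 Yoda1 libraries 23.3, 25.5, 29.0 and 22.3 CPM. Every Yoda1 library was above every DMSO library, and the third Yoda1 library was the highest. The fitted change was 1.596-fold, a log2 fold change of 0.67 with a standard error of 0.08. With 234 to 433 counts per library, counting alone gave a coefficient of variation of about 5.77%, and the libraries varied by 9.16% in DMSO and 11.9% in Yoda1.

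Pdcd1, which encodes PD-1 and lies on chromosome 1 from 94038305 to 94052553, was far more abundant in these cells. It stood at 126, 143, 150.2 and 138 CPM in the DMSO libraries and at 176, 178, 171 and 171 CPM in the Yoda1 libraries. The groups did not overlap, and the Yoda1 libraries lay closer together than the DMSO libraries, with SDs of 3.61 and 9.95 CPM. The fitted change was 1.25-fold (log2 0.32, SE 0.04).

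Lag3, a CD4-like receptor that binds MHC class II and other ligands, lies on chromosome 6 from 124904361 to 124911705. Its levels were 11.6, 13.9, 11.7 and 10.7 CPM with DMSO and 16.1, 15.95, 14.996 and 17.0 CPM with Yoda1. The second DMSO library reached to within about 1 CPM of the lowest Yoda1 library without overlapping it. The fitted change was 1.33-fold (log2 0.41, SE 0.09), on 145 to 330 counts per library.

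Havcr2, which encodes TIM-3, a receptor of dysfunctional T cells and of myeloid cells, lies on chromosome 11 from 46454935 to 46481255. The DMSO libraries held 51.8, 58.3, 55.8 and 61.6 CPM and the Yoda1 libraries 83.5, 82.2, 85.7 and 81.4 CPM. The gap between the highest DMSO and the lowest Yoda1 library was wider than the whole range within either group. The fitted change was 1.46-fold (log2 0.55, SE 0.05).

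Tigit, a receptor for the nectin-like protein PVR, lies on chromosome 16 from 43648867 to 43664146 and was near the threshold. Its levels were 8.45, 7.06, 8.89 and 7.39 CPM in DMSO and 10.3, 9.80, 10.05 and 9.26 CPM in Yoda1 libraries. The groups did not overlap, yet the gene was not called, and it was called in 4 of 16 alternative settings. Its log2 fold change was 0.30 (SE 0.10, 1.23-fold), close to that of Pdcd1, on 100 to 180 counts per library against 1866 to 3317 for Pdcd1.

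Btla, Cd200r1 and Klrg1 were the 3 receptors whose groups overlapped. Btla, the receptor of HVEM, lies on chromosome 16 from 45224315 to 45257670 and was the lowest member, at 3.19, 2.90, 2.30 and 2.73 CPM in DMSO and 2.66, 2.68, 2.25 and 2.42 CPM in Yoda1 libraries. Its log2 fold change of -0.16 had a standard error of 0.18. Only 30 to 53 counts were behind each value, and the counting error of about 15.8% was larger than the spread within either group, so a log2 difference like the 0.32 of Pdcd1 is less than 2 of its standard errors and was not detectable at this depth.

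Cd200r1 and Klrg1 had ample counts. Cd200r1, the receptor for CD200 (chromosome 16, 44765736 to 44794978), stood at 146, 137, 149 and 148 CPM with DMSO and 148, 147, 143 and 146 CPM with Yoda1. The log2 fold change was 0.01 (SE 0.04), and its sign turned with the scaling of the libraries. Klrg1, a lectin-like receptor for cadherins (chromosome 6, 122270596 to 122282882), stood at 73.8, 69.9, 68.7 and 67.0 CPM with DMSO and 72.5, 65.9, 74.0 and 72.9 CPM with Yoda1. The log2 fold change was 0.03 (SE 0.05), and it also fell below 0 under upper-quartile scaling. The standard errors of both genes were about those of Pdcd1 and Havcr2 and smaller than those of Ctla4 and Lag3.

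**Figure D1:**
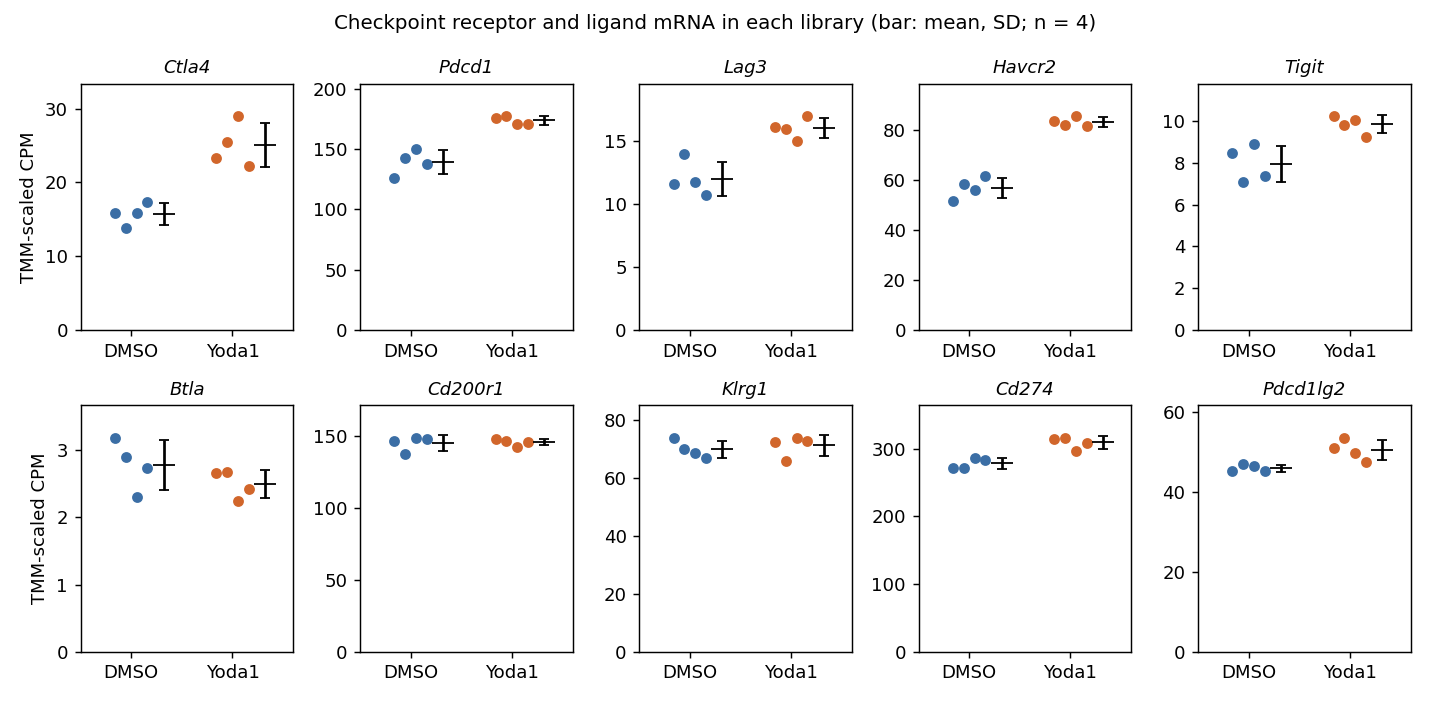
TMM-scaled CPM (y axis, from 0, a scale of its own for each gene) of the 10 members in the 4 DMSO (blue) and 4 Yoda1 (orange) libraries, 1 point a library, with the group mean and SD in black. The groups are apart in 7 genes, by most in Ctla4 and Havcr2, and overlap in Btla, Cd200r1 and Klrg1.

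The ligands of PD-1 lie side by side on chromosome 19. Cd274, which encodes PD-L1 (29367455 to 29388095), was the most abundant member, at 271, 272, 287 and 284 CPM in DMSO and 315, 316, 296 and 309 CPM in Yoda1 libraries. The third Yoda1 library was the lowest of its group and still above every DMSO library. The fitted change was 1.11-fold (log2 0.15, SE 0.04). In the annotation 511 bases, 14.1% of its exon length, overlap exons of an antisense gene, AC119228.1, and the strand setting of the counting is not given in the sources used here, so reads of the antisense gene cannot be told apart there.

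Pdcd1lg2, which encodes PD-L2 (29410919 to 29471161), stood at 45.2, 46.8, 46.5 and 45.1 CPM with DMSO and at 51.0, 53.6, 49.7 and 47.4 CPM with Yoda1. The groups did not overlap, though the fourth Yoda1 library came within 1 CPM of the highest DMSO library, and the gene was not called (log2 fold change 0.13, SE 0.05, 1.10-fold). The ratio of Pdcd1lg2 to Cd274 counts within a library was 0.165 ± 0.006 with DMSO and 0.163 ± 0.007 with Yoda1 (SD, n = 4), and the groups overlapped in it.

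**Figure D2:**
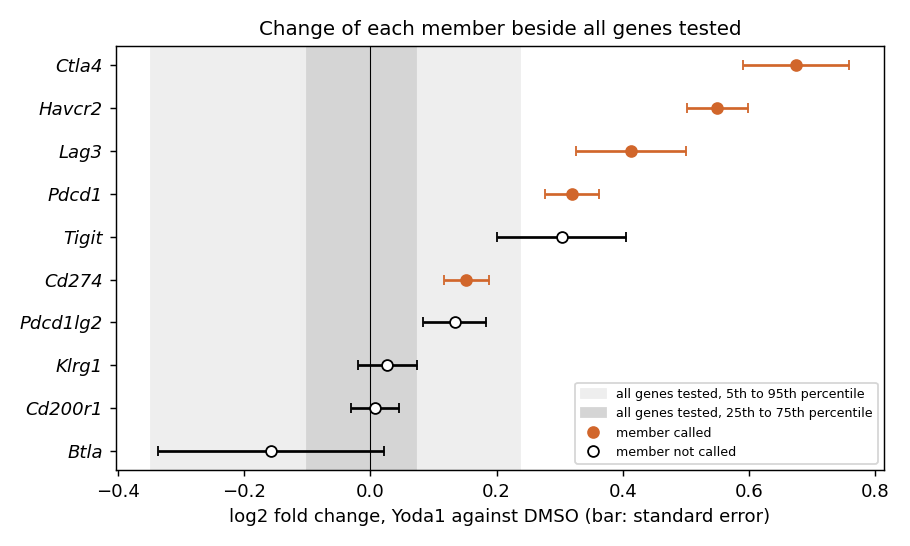
Log2 fold change of each member, Yoda1 against DMSO, with its standard error (x axis), over bands for the middle of all 12239 genes tested. Ctla4, Havcr2, Lag3, Pdcd1 and Tigit lie above the 95th percentile of all genes (0.24), Cd274 and Pdcd1lg2 between the 75th (0.07) and the 95th, and Klrg1 and Cd200r1 inside the middle band.

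Summed over the 8 receptors, the level was 449.5 ± 10.6 CPM in DMSO and 528 ± 4.67 CPM in Yoda1 libraries, and over the 2 ligands 324 ± 8.20 and 359 ± 10.7 CPM (SD, n = 4). The receptor sum ranged from 437 to 462 CPM with DMSO and from 522 to 532 CPM with Yoda1. Pdcd1 and Havcr2 supplied most of that difference, and Ctla4 and Lag3 added less because their levels were low.

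The order of the members was set out on the scale of CPM per kilobase of merged exons, since counts grow with length. With DMSO, Cd274 at 76.8 ± 2.25 and Pdcd1 at 72.2 ± 5.15 led, and their ranges overlapped. Klrg1 at 49.4, Cd200r1 at 43.3, Pdcd1lg2 at 23.4, Havcr2 at 20.9 and Tigit at 8.65 followed, each apart from the next. Ctla4 at 6.74 and Lag3 at 5.68 overlapped, and Btla at 0.82 was last.

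With Yoda1, Pdcd1 stood at 90.1 ± 1.87 and Cd274 at 85.3 ± 2.52 CPM per kilobase, and the ranges no longer overlapped. Havcr2, the TIM-3 gene, stood at 30.6 and ranked above Pdcd1lg2 at 25.7. Ctla4 and Tigit came to 10.7 each with overlapping ranges, ahead of Lag3 at 7.58 and Btla at 0.74. The place of Cd200r1 depended on the length used, since with its longest transcript it came to 76.7 in DMSO libraries, between Cd274 and Pdcd1. With longest transcripts, Havcr2 at 30.6 and Pdcd1lg2 at 29.2 overlapped in Yoda1 libraries, and Ctla4 at 12.9 stood apart from Tigit at 10.7. In DMSO libraries Tigit and Ctla4 then overlapped, and Ctla4 stood apart from Lag3.

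**Figure D3:**
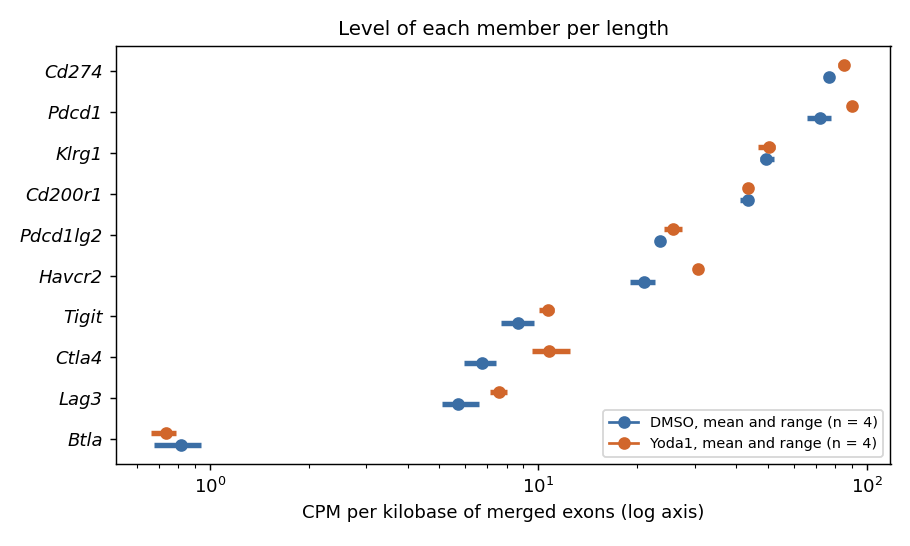
CPM per kilobase of merged exons (x axis, log scale) for each member, with the mean as a point and the lowest to highest of 4 libraries as a line, DMSO in blue and Yoda1 in orange. Levels run from under 1 for Btla to about 90 for Pdcd1, and Havcr2 and Pdcd1lg2 change places between the groups.

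Ratios within a library do not depend on scaling. The ratio of Havcr2 to Cd200r1 counts was 0.392 ± 0.034 with DMSO and 0.571 ± 0.020 with Yoda1, and the ratio of Ctla4 to Klrg1 was 0.225 ± 0.026 and 0.352 ± 0.044 (SD, n = 4). Both ratios were higher in every Yoda1 library than in any DMSO library. Pdcd1 to Cd274, receptor to ligand, went from 0.501 ± 0.029 with DMSO to 0.563 ± 0.010 with Yoda1, also without overlap.

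The members that differed did not rank the libraries alike. Within the Yoda1 group the third library was highest for Ctla4 and Havcr2 and lowest for Lag3 and Cd274. For Havcr2 and Lag3 the libraries of this group varied by 2.25% and 5.06%, less than the counting error of about 3.09% and 6.90%. Their order within the group thus cannot be told apart from counting error. Ctla4 and Cd274 varied by 11.9% and 2.95% there, beside counting errors of 5.77% and 1.49%. Over the 8 libraries, the genes whose log2 CPM followed Ctla4 most closely, of 8806 compared, were Uhrf2 (Pearson r = 0.99), Tagap (0.98), Flcn (0.98), Zbtb7b (0.97) and Cry1 (0.97). For Havcr2 they were Tiam2, Ccl1, Tgtp1, Plek and Egr3, each at an r of 0.99. These values describe 8 libraries that share 1 treatment split. Within the groups the values were lower, at 0.95 for Uhrf2 with Ctla4 and 0.88 for Tiam2 with Havcr2. The genes were picked by their r over these same libraries, so the values within groups are not independent of that choice. Nothing is read from them.

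The ligands and partners of the receptors, 31 genes listed by role, gave 25 tested genes, of which 5 were called, 3 higher and 2 lower (20.0%, beside 10.9% of all genes, median log2 fold change 0.01). This list was drawn up with earlier results of these data known, and so were those of inhibitory receptors, signalling genes and regulators below. Nothing is read from their shares. The genes that flank Ctla4 on chromosome 1 moved apart. Cd28, the costimulatory receptor that starts 170.2 kb before Ctla4, rose from 18.2 ± 1.19 to 22.2 ± 0.90 CPM (SD, n = 4, log2 0.29, SE 0.07, edgeR adjusted p = 0.00684). Icos, a costimulatory receptor that ILC2s use, starts 90.9 kb after Ctla4 and fell from 249 ± 4.82 to 219 ± 4.69 CPM (log2 -0.18, SE 0.03, edgeR adjusted p = 0.000601). Icos stood at 243, 253, 252 and 248 CPM in the DMSO libraries and 219, 223, 213 and 223 CPM in the Yoda1 libraries, without overlap. Ctla4 was thus at 0.063 ± 0.006 of the Icos counts with DMSO and 0.114 ± 0.016 with Yoda1, and at 0.864 ± 0.076 and 1.13 ± 0.184 of the Cd28 counts. These are mRNA values. The paper measured CTLA-4, ICOS and PD-1 protein by flow cytometry, and of these its text names a change in PD-1 alone, a subtle rise.

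Among the other partners, Lgals3, which encodes galectin-3, a ligand reported for LAG-3, rose from 104 ± 5.71 to 119 ± 6.60 CPM (log2 0.19, edgeR adjusted p = 0.0052). Cd226, the activating receptor that competes with TIGIT for PVR, rose from 41.5 ± 2.37 to 46.5 ± 1.495 CPM (log2 0.17, edgeR adjusted p = 0.0362), although its groups overlapped. Hmgb1, a chromatin protein and a ligand reported for TIM-3, fell from 468 ± 9.46 to 430.3 ± 11.9 CPM (log2 -0.12, edgeR adjusted p = 0.0204). Without DMSO replicate 2 or without Yoda1 replicate 4, 3 partner genes were called in place of 5.

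The ligands of CTLA-4, TIGIT, BTLA and CD200R1 did not pass the test. Cd80 was at 24.6 and 26.7 CPM, Cd86 near 1 CPM in both groups, and Pvr at 11.2 and 13.8 CPM (log2 0.29, SE 0.10, edgeR adjusted p = 0.0681). Tnfrsf14, the HVEM gene, was at 19.1 and 17.0 CPM and Cd200 at 11.7 and 12.7 CPM. The MHC class II genes H2-Aa, H2-Ab1 and H2-Eb1, whose products LAG-3 binds, were at 155, 155 and 201 CPM with DMSO and 157, 156 and 217 CPM with Yoda1, without a call. Fgl1, Clec4g, Havcr1 and Timd4 had 0 counts in all 8 libraries, which allows up to 3 counts in each, and Cdh4 had at most 2 counts.

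Of 49 further inhibitory receptors and related genes listed, 33 could be tested and 6 were called, all higher with Yoda1 (18.2%, beside 10.9% of all genes, median log2 fold change 0.10). Klrc1, which encodes the NKG2A chain, rose from 20.3 ± 1.59 to 26.5 ± 0.78 CPM (log2 0.39, SE 0.07). Klra9, a Ly49 family receptor, rose from 3.59 ± 0.59 to 5.23 ± 0.29 CPM (log2 0.56, SE 0.14), and its reads may be shared with close Ly49 copies. Cd72 had a log2 fold change of 0.31, and Nt5e, which encodes the adenosine-producing enzyme CD73, one of 0.22. Lilrb4a, a receptor with inhibitory tail motifs, had 0.19, and the VISTA gene Vsir, listed under the older symbol 4632428N05Rik, had 0.16. Adjusted p-values of the 6 reached 0.0298 at most (edgeR), and the groups did not overlap in any of them.

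The list of signalling and trafficking genes that act below or on these receptors held 39 tested genes, with 7 called higher and 2 lower (23.1%, beside 10.9% of all genes, median log2 fold change 0.03). Ptpn6, which encodes the phosphatase SHP-1 that inhibitory tails recruit, rose from 61.7 ± 3.19 to 74.4 ± 2.02 CPM (log2 0.27, SE 0.05). Ptpn22 (log2 0.32) and Ubash3b (0.31), phosphatases that restrain antigen receptor signals, Cblb (0.20), a ubiquitin ligase with the same effect, and Sh2d2a (0.22), an adaptor, rose as well. Dok2, an adaptor that damps receptor signals, fell from 58.8 ± 2.33 to 46.7 ± 1.36 CPM (log2 -0.33, SE 0.05). Cmtm6, whose product keeps PD-L1 at the cell surface, fell from 272 ± 8.84 to 248 ± 2.59 CPM (log2 -0.13, SE 0.04, edgeR adjusted p = 0.0116), while Cd274 itself was higher.

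Known or proposed regulators of checkpoint genes were listed too, transcription factors apart from the histone methyltransferase Ezh2 and the cytokine receptor Il27ra, and 15 of 48 were called higher and 4 lower (39.6%, beside 10.9% of all genes). The largest increases were in Nr4a2 (log2 2.11), Nr4a3 (1.505), Egr3 (1.39), Egr2 (1.38) and Nr4a1 (0.75), factors induced by calcium and antigen receptor signals. Tcf7 (-0.42), Lef1 (-0.39), Nfatc2 (-0.28) and Maf (-0.13) fell. The largest adjusted p among the 19 calls was 0.0484 (edgeR).

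**Figure D4:**
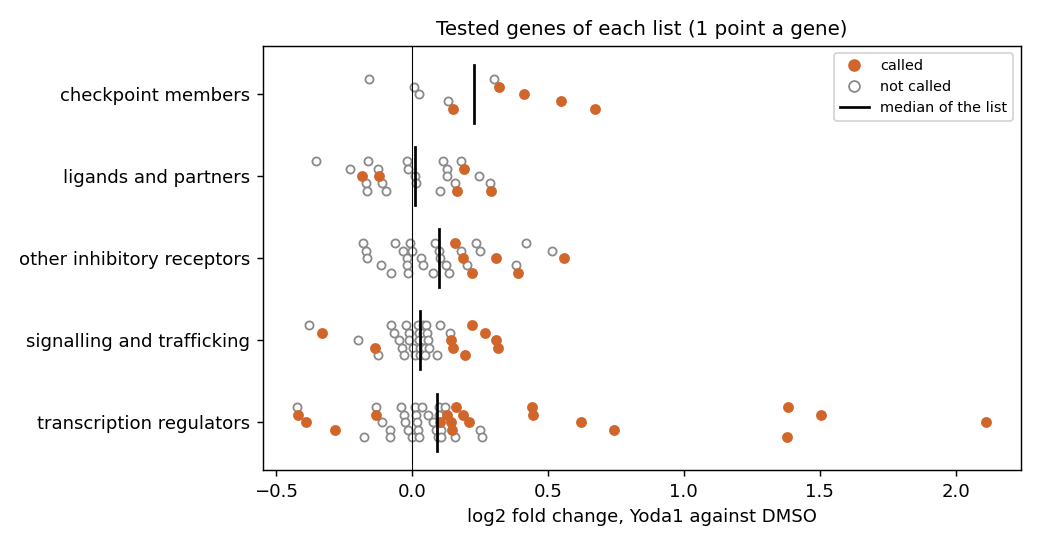
Log2 fold change, Yoda1 against DMSO (x axis), of every tested gene in each list, 1 point a gene, with called genes filled in orange and the median of the list as a black line. Medians run from 0.01 for ligands and partners to 0.23 for the checkpoint members, and the Nr4a and Egr genes stand far to the right. The members and all the other lists were chosen with earlier results of these data known, so nothing is read from the medians.

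Genes near the members were taken by position, from those whose start lies within 250 kb of the start of a member. Of 47 such genes tested, 8 were called, 7 higher and 1 lower (17.0%, beside 10.9% of all genes). Beside the PD-1 ligand genes, Jak2, a kinase of cytokine receptors, starts 116 kb before Cd274 and rose from 757 ± 15.3 to 880 ± 24.1 CPM (log2 0.22, SE 0.03), and Ric1 starts 111 kb after Pdcd1lg2 and had a log2 fold change of 0.22 (SE 0.06). Near Lag3, Ptpn6 and Zfp384 (log2 0.16) were called, out of 24 genes in that dense stretch. M6pr, 25.8 kb before Klrg1, had a log2 fold change of 0.13. Cd200r4, a paralog 46.0 kb after Cd200r1, rose from 16.1 ± 1.43 to 19.5 ± 2.54 CPM (log2 0.28, SE 0.09, edgeR adjusted p = 0.0376) with overlapping groups, and the counting may split reads between these paralogs. Without Yoda1 replicate 1, 5 neighbours were called in place of 8. No gene near Havcr2, Pdcd1 or Btla was called, of 5, 2 and 4 tested.

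**Figure D5:**
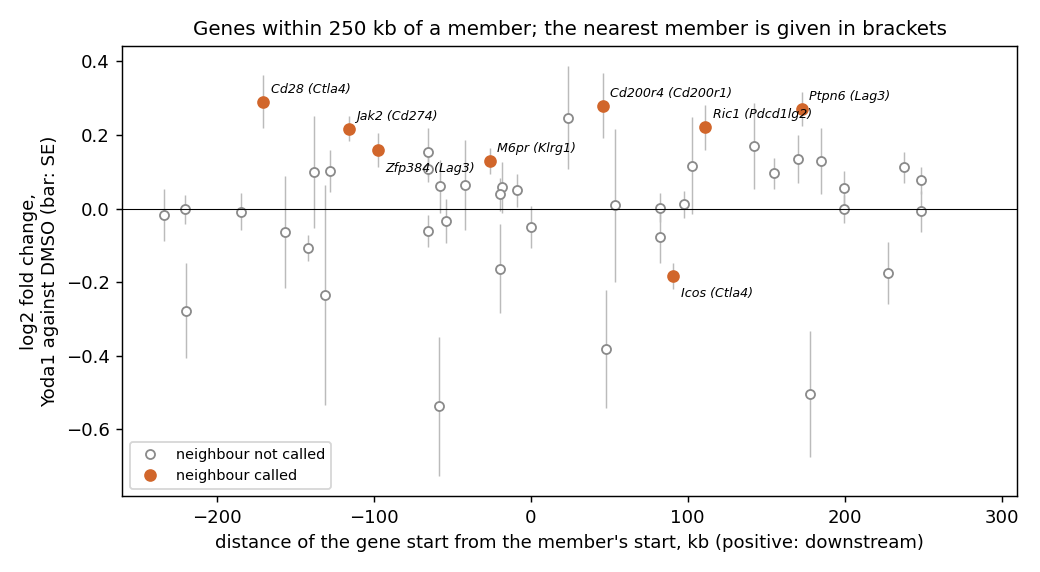
Log2 fold change with standard error (y axis) of the genes near a member, against the distance of their start from that of the nearest member in kb (x axis, positive downstream along the member's strand). The 8 called genes are filled and named, and Icos is the only one below 0.

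Checkpoint genes are also expressed by T, NK, B and myeloid cells, so markers of these cells are given beside the values above. The summed T cell markers (12 genes in the files) ranged from 146 to 153 CPM in DMSO and from 153 to 164 CPM in Yoda1 libraries. The two-sided exact permutation p was 0.0286, the lowest that 4 libraries against 4 can give, and 0.0571 after adjustment over 6 lists. This p depended on the scaling of the libraries, as given below. Of the 12 genes, 0 were called, beside 10.9% of all genes, and 7 were above 0 on the log2 scale. The most abundant, Cd3g, was at 46.8 CPM with DMSO and 52.2 CPM with Yoda1 (log2 0.15, SE 0.05), and Cd4 was at 4.05 and 4.79 CPM. Cd3e had 73 to 126 counts, at 6.50 and 5.80 CPM, and Foxp3, a gene of regulatory T cells that carry CTLA-4 and TIGIT, had 7 to 25 counts per library. Foxp3 was at 1.10 CPM with DMSO and 0.85 CPM with Yoda1 (log2 -0.42, SE 0.32). The NK list ranged from 1684 to 1947 CPM with DMSO and from 1917 to 2081 CPM with Yoda1 (exact permutation p = 0.0571, adjusted p = 0.0857). Gzmb, Prf1 and Eomes were called higher, 3 of 10 tested, beside 10.9% of all genes. Most of the sum came from Gzmb, Prf1 and Gzma, at 939, 385 and 344 CPM of a mean of 1786 CPM with DMSO. Ncr1 and Klrb1c were at 4.42 and 6.07 CPM with DMSO and 3.70 and 5.28 CPM with Yoda1. Klra8 and Klre1 went the other way, from 8.58 to 9.89 CPM and from 4.52 to 4.85 CPM. Of the 10 NK markers tested, 6 were above 0 on the log2 scale.

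The myeloid list ranged from 32.2 to 35.2 CPM with DMSO and from 38.5 to 43.9 CPM with Yoda1 (exact permutation p = 0.0286, adjusted p = 0.0571). Of its genes 2 of 4 tested were called, beside 10.9% of all genes. Xcr1 rose from 16.5 to 25.5 CPM (log2 0.63) and Zbtb46 fell from 5.39 to 3.95 CPM (log2 -0.44), both without overlap, while Csf1r, Lyz2, Clec9a, Marco, C1qa and C1qb had at most 3 counts in any library. The B cell list ranged from 5.91 to 7.76 CPM and from 6.57 to 8.997 CPM, with Ms4a1 and Pax5 at no more than 3 counts, and the mast cell and basophil list from 78.0 to 89.3 CPM and from 76.3 to 86.5 CPM (exact permutation p of 0.343 and 0.400). Of the 15 ILC2 markers 7 were called, all higher (46.7%, beside 10.9% of all genes). These were Il13, Il5, Areg, Arg1, Il1rl1, Thy1 and Ptprc. The sum of the 15 went from a range of 18701 to 19231 CPM to one of 20981 to 21388 CPM (exact permutation p = 0.0286, adjusted p = 0.0571). Its largest part was the cytokine gene Il13, at 5431 CPM with DMSO and 6667 CPM with Yoda1. Gata3, Id2 and Rora were at 565, 940 and 590 CPM with DMSO and 565, 925 and 604 CPM with Yoda1, without a call. The part of these cells in the checkpoint values was not tested.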

How the data were processed

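Poly(A) RNA of cultured murine lung ILC2s was sequenced from directional libraries. Each of the 8 deposited files holds raw counts of reads by gene symbol, whole numbers that the authors left without normalization. According to the study's methods the tools were BBMap, Cufflinks, FastQC and FASTX Trimmer, and the submitters' processing notes name TopHat and mm10. Tool versions, annotation and strand setting are not given in the sources used here.

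Genes were filtered with filterByExpr (minimum count 10, minimum total count 15), scaled by TMM and compared in R 4.3.3 with edgeR 4.0.16 (robust quasi-likelihood test, Benjamini-Hochberg adjustment over all 12239 genes at 0.05). The standard error was the absolute log2 fold change divided by the root of F. CPM was computed on TMM-scaled library sizes, and intervals and floors (3 counts) cover counting error only. Marker sums were compared by two-sided exact permutation tests. Positions came from GENCODE M21 (GRCm38, the same assembly as mm10) and promoters from RefSeq (GRCm38.p6). Replicates differed by more than sampling noise (chi-square per gene 2.01 to 6.62), so all 8 libraries were kept.

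The members and all gene lists were chosen with earlier results of these data known. Named genes were the members, up to 5 called increases and 5 called decreases of each list, partners in a member's locus, and the 5 genes most correlated with Ctla4 and with Havcr2 (mean CPM of at least 10). Partners and marker genes without a call were named after their values were seen. Alternatives were DESeq2 1.42.0, limma-voom (limma 3.58.1), RLE, upper-quartile and library-size scaling, no filter, at least 10 counts in every sample, a replicate block, each library left out in turn and a 500 kb locus window. The pipeline was tested on simulated data.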

Additional observations from a re-analysis of the deposited data

How the results depend on the processing

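Ctla4, Pdcd1, Lag3, Havcr2 and Cd274 were called higher in 16 of 16 alternatives. Members called numbered 5 or 6, none lower, and Tigit was the added gene with RLE factors, with at least 10 counts in every sample, and without DMSO replicate 1 or 3. Cd200r1 turned to a log2 fold change of -0.0135 with library size only, -0.0225 with upper-quartile factors and -0.0188 without DMSO replicate 2, ranging from -0.0188 to 0.0210 over the libraries left out, and Klrg1 to -0.00337 with upper-quartile factors. Partners called were 3 with the replicate block and 3 to 6 with 1 library left out, the lowest without DMSO replicate 2 or Yoda1 replicate 4. Locus neighbours called were 13 of 79 with the 500 kb window and 5 to 10 with 1 library left out, the lowest without Yoda1 replicate 1. Over all genes the calls split into 739 higher and 592 lower, 553 and 809 with library size only, and 505 and 958 with upper-quartile factors, the cause of which was not tested. No pairing of the samples by replicate number was seen (correlation of deviations -0.03 to 0.07, own number the best match for 1 of 4). Such correlations cannot exclude a paired design. The replicate block left 966 genes and 5 members called. For the T cell marker sum the exact permutation p, before adjustment, was 0.0286 with RLE factors, 0.0857 with library size only and 0.143 with upper-quartile factors. With each of these scalings it stayed at 0.0286 for the myeloid and ILC2 sums and at 0.0571 for the NK sum. Depth limits Btla most, at 30 to 53 counts.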
